A study of Mus musculus with 4 samples.

Results

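The genes described here are the mouse semaphorins, plexins, Eph receptors and ephrins, chosen by symbol alone: every protein-coding gene whose name starts with Sema and a digit, or with Plxn, Epha, Ephb, Efna or Efnb. There were 51 such genes of 21883 protein-coding genes in the gene table. Open chromatin was assigned to a gene when a peak overlapped the gene's span or the 20 kb on either side, called the gene's window. Across the 4 libraries this gave 635 of 170898 regions, where a region is a stretch of overlapping peaks merged over the libraries. The libraries were ATAC-seq, which uses a transposase to cut and tag open DNA, from 2TS22C, a mouse embryonic stem cell line. All cells carried a silenced endogenous Sox2, were treated with DOX and had received a lentivirus, and the labels do not state the virus's promoter or whether the line is 1 clone. In 1 group the virus supplied SOX2, the HMG-box factor that embryonic stem cells need to stay pluripotent. In the other it supplied SOX17FNV, a SOX17 protein altered by engineering. Unaltered SOX17 is known as a factor of endoderm. Both groups are described as rescued by their factor and grew in 2i serum/Lif medium. Each group had 2 libraries, called biological replicates in the titles. Whether these came from separate cultures is not stated beyond that, so every p-value below measures the spread between these libraries.

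Semaphorins and ephrins are ligands that tell cells and growing axons where to go. Semaphorins of class 3 are secreted and act through neuropilins and class A plexins, while those of classes 4 to 7 are mostly held in the membrane and can bind plexins directly. Plexins carry an intracellular GTPase-activating domain, which dampens small GTPases and loosens adhesion. Eph receptors are receptor tyrosine kinases. Their ephrin ligands sit on the neighbouring cell, the A type through a lipid anchor and the B type through a transmembrane stretch, so signals run in both directions at cell contacts. In the early embryo these families are known for sorting cells into separate layers, and several members are transcribed in pluripotent cells. Peaks show open DNA and not transcription, so none of the values below is an expression level.

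Replicate 1 of either group had the longer peak list. The lowest background pileup in a list, which grows with depth, was 3.91 and 3.27 with SOX17FNV, and 4.17 and 5.02 with SOX2. The weakest summit pileup called was 12 and 13 in the SOX2 lists. SOX2 replicate 2 was thus the higher in both values, yet its list was shorter. Its median pileup over regions called in all 4 libraries was also lower, 28 against 35. The windows of the 51 genes held 475 and 367 of the 120341 and 92851 SOX17FNV peaks, and 479 and 375 of the 123214 and 96500 SOX2 peaks. The starts of all 10 embryonic stem cell marker genes (Pou5f1, Nanog, Sall4 and others) were called in all 4 libraries. For fibroblasts, which can serve as feeder cells, 5 of 8 marker starts were called in all 4 libraries, and those of Col3a1, Postn and Prrx1 in none. The corresponding counts were 4 of 6 for endoderm and 5 of 6 for neural markers. A start was counted as called in a library when a region called there reached within 1 kb of it, and an open start is not specific to a cell type. The part that other cells play in the results below was not tested.

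The starts of these genes were open nearly throughout. Calls were pooled over all starts of a gene. For 46 of the 51 genes (90.2%) each of the 4 libraries called a start, beside 64.5% of all protein-coding genes. For 4 (7.84%) none was called, beside 27.6%. The start could differ between libraries: no single listed start of Sema4a or Sema4d was called in all 4. The letters ahead of 5 of the members' starts are shown. They include starts called in all 4 libraries, among them a weakly open one, and a start that no library called. Each is the 250 bases before a RefSeq transcript start in GRCm38.p6 (the build of mm10), on the gene's strand, with every CpG in capitals. Efnb2, a transmembrane ligand of EphB receptors, has its stretch at chr8:8661243-8661492 (minus strand). Epha4, a receptor that binds ephrins of both types, has it at chr1:77515089-77515338 (minus strand). Sema3c, a secreted semaphorin known for its role in the heart's outflow tract, has it at chr5:17574566-17574815 (plus strand). Sema6d, a transmembrane semaphorin that binds Plxna1, has it at chr2:124089719-124089968 (plus strand), and Sema3g, a secreted semaphorin, at chr14:31217623-31217872 (plus strand).
Efnb2: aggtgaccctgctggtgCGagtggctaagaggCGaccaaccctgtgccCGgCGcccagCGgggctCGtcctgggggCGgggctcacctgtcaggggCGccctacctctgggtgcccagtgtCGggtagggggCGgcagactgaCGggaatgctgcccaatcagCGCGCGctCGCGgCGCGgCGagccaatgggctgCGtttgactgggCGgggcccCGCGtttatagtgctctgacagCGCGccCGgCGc
Epha4: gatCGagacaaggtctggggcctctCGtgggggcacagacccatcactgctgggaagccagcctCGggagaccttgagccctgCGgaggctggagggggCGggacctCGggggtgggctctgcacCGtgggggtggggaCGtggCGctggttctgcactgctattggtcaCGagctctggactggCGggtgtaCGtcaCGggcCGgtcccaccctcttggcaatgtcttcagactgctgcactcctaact
Sema3c: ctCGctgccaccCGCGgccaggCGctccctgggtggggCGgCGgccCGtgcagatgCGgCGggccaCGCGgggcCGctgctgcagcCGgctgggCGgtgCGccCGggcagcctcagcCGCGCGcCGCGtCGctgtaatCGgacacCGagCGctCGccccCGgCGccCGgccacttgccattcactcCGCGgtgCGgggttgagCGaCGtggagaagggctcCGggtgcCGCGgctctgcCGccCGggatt
Sema6d: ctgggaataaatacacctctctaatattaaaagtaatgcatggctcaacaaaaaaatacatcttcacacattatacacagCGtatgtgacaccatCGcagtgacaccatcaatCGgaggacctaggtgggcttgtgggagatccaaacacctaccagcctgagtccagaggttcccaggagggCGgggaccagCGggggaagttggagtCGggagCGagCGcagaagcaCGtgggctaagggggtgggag
Sema3g: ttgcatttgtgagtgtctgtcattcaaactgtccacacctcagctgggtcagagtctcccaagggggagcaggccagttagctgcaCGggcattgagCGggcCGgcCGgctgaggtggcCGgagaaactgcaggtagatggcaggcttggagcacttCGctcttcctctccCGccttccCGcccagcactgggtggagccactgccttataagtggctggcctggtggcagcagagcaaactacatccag

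These stretches hold 27 CpG for Efnb2, 14 for Epha4, 39 for Sema3c, 9 for Sema6d and 8 for Sema3g. A summit pileup is the number of overlapping reads at a peak's highest point. The value given for a start is the highest summit pileup of the regions reaching within 1 kb, so that summit can lie farther off. At the Efnb2 start it was 75 and 52 with SOX17FNV (replicates 1 and 2) and 78 and 61 with SOX2. At the Epha4 start it was 56, 37, 65 and 49 in the same order, and at the Sema3c start 33, 29, 33 and 29. In all 3 cases replicate 1 of a group was above replicate 2 and the raw ranges of the groups overlapped. Divided by each library's median over shared regions, the Epha4 start had 1.70 and 1.54 with SOX17FNV and 1.86 and 1.75 with SOX2. Both SOX2 libraries were then the higher ones, as in 18.5% of all shared regions, and the difference did not pass (adjusted p = 0.778, limma test described below). At the Sema6d start above, the summit pileups were 13 and 11 with SOX17FNV and 16 and 19 with SOX2, among the weakest called starts of the family. Each library had a summit between 11 and 942 bp from the start. The SOX2 libraries were the higher pair as called, but the groups overlapped once each library was divided by its median over shared regions (0.394 and 0.458 against 0.457 and 0.679). At the Sema3g start no library had a peak within 1 kb.

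The table of starts held 59 starts of 45 of the 51 genes. No start was listed there for Efnb3, Plxna1, Plxna4, Sema3b, Sema3f and Sema6a, and either gene end was used in its place. The 59 starts had a median of 16 CpG in the 250 bases, beside 10 for all 21262 starts of 17491 protein-coding genes, and a median GC content of 64.0% beside 55.6%. The 45 member starts called in all 4 libraries had a median of 17 CpG, with a range of 0 to 39. The 10 starts called in 1 to 3 libraries had a median of 4.5 (1 to 46), and the 4 starts called in none also had a median of 4.5 (2 to 8). These are descriptions over starts, several of which belong to the same gene. Among those called in 1 to 3 libraries were the 4 starts of Sema4a (2 to 13 CpG) and the 3 of Sema4d (1 or 2). The others held 13 CpG at Plxnb2, 20 at Sema6b and 46 at Epha8. At the upper end was Epha8, an EphA receptor. Its stretch held 46 CpG, the most in the family, yet a peak within 1 kb was called in replicate 1 of each group alone, with summit pileups of 14 and 16.

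**Figure D1:**
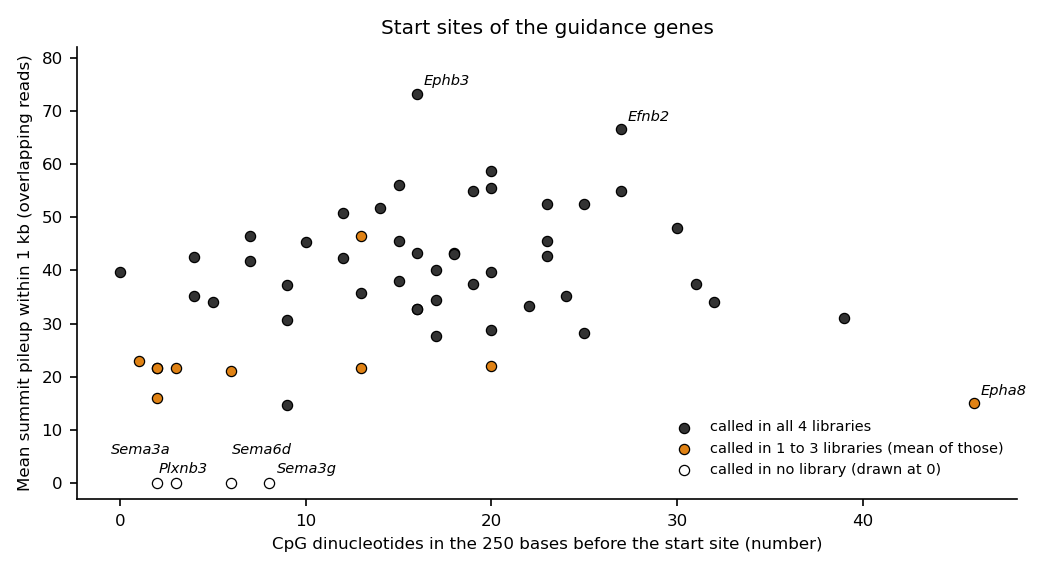
Each point is 1 listed start of a semaphorin, plexin, Eph receptor or ephrin gene. The horizontal axis gives the number of CpG in the 250 bases before it. The vertical axis gives the highest summit pileup (overlapping reads) of the regions reaching within 1 kb, as the mean over the libraries that called it. That summit can lie farther off than 1 kb, and starts that share a region share its value. Filled dark points were called in all 4 libraries, orange points in 1 to 3, and open points in none (drawn at 0). The open points lie between 2 and 8 CpG, and Epha8 stands apart at 46 CpG with low pileups.

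The 4 genes with no called start were Sema3a, Sema3b, Sema3g and Plxnb3. For Sema3a, the secreted repellent of sensory axons, the only listed start lies inside the gene's span, at position 13396784 of chromosome 5. The beginning of the span itself had a region at chr5:13125303-13126009 that was called in all 4 libraries, with summit pileups of 23 and 19 with SOX17FNV and 21 and 18 with SOX2. The missing peak of Sema3a is thus one at the listed start, while the beginning of its span was open in every library. Plxnb3, a receptor for Sema5a on the X chromosome, had 10 regions in its window. The strongest, at chrX:73786102-73787732, also touched the ends of Idh3g and Ssr4 and had summit pileups of 89, 72, 92 and 82. Sema3b had 11 regions in its window, of which 7 were called in all 4 libraries, and the strongest (62, 57, 72 and 67) lay at the ends of Hyal3 and Ifrd2. In both windows the strongest region thus belonged to the ends of neighbouring genes.

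Letters resembling the sites of SOX and POU factors were counted in the same 250 bases, on both strands. The SOX core ACAAT (reading ATTGT on the other strand) was found in 11 of the 59 starts (18.6%), beside 25.1% of all 21262 starts. ACAAAG, which reads CTTTGT on the other strand, was found in 7 (11.9%), beside 14.9%. The POU motif ATGCAAA, which reads TTTGCAT on the other strand, was found in 0 of 59, beside 3.86%. Most letters of each motif are A or T, while the members' starts had the higher GC content (median 64.0% beside 55.6%). The comparison was not matched on it, so it shows no depletion of these motifs. ACAAT and ACAAAG share their first 4 letters and cannot start at the same base, and each motif was counted separately. A match is a description of letters and not a bound site, and no match says only that these letters are not in this window.

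Beyond the starts, these genes carried more regions than a typical gene and had longer spans. The median was 11 regions per gene (1 to 45), beside 8 for all protein-coding genes, with a median span of 29.0 kb beside 17.2 kb. Per 100 kb of window the medians were 16.6 and 12.3 regions. Of the 635 regions, 372 overlapped a span and 263 lay in a flank only, 11 belonged to the windows of several members, and 65 (10.2%) lay within 1 kb of the end of another protein-coding gene. All 4 libraries called 243 of the regions (38.3%), beside 33.8% of all regions. A single library called 198 (31.2%, beside 35.2%), and 43 were called in replicate 1 of both groups alone, against 4 in replicate 2 of both groups alone.

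Regions that followed the SOX factor were few. A region is called SOX17FNV-only here when both SOX17FNV libraries and neither SOX2 library called it, and SOX2-only for the reverse. The family had 18 SOX17FNV-only regions (2.83%), where 3.06% of all regions were of that kind. It had 26 SOX2-only regions (4.09%), where the background was 4.09%. Both shares lie near the background. SOX17FNV-only regions made up 40.9% of these 44 group-specific regions (exact Clopper-Pearson 95% interval 26.3% to 56.8%), beside 42.8% (41.9% to 43.7%) of all group-specific regions. The intervals cover counting error only. The members' share was 71.1% without SOX17FNV replicate 2 (91 and 37 regions) and 19.3% without SOX2 replicate 2 (22 and 92), beside 73.6% and 20.6% of all group-specific regions. With 2 libraries against 2, an exact permutation test cannot give a p below 0.333, so the counts carry no test. In bulk chromatin, fewer cells with an open site and less opening per cell cannot be told apart.

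These 44 regions were weaker than the shared ones, and nearly all lay away from the starts. The corresponding values for all group-specific regions of the series are not given here, so no trait particular to these genes is shown. The median summit pileup of the SOX17FNV-only regions was 19 and 15.5 in the SOX17FNV libraries, at the 39.1th and 33.9th percentile of each library's regions. The SOX2-only regions had medians of 21.5 and 18 in the SOX2 libraries (44.2th and 31.7th percentile). The 243 shared regions had medians of 37, 29, 42 and 32, between the 75.4th and 82.6th percentiles. A peak needed a summit pileup of at least 10 to 13, depending on the library, to be called at all. Of the 44, 31 overlapped a span and 13 lay in a flank. Within 1 kb of a member's start, or of either gene end where no start was listed, lay 1 (Efnb3). The nearest peak of the other group lay a median of 1566 bp away for SOX17FNV-only regions (221 to 16184 bp) and 4154 bp for SOX2-only regions (626 to 101047 bp). Within 500 bp there was such a peak for 3 of 18 and 0 of 26 regions.

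By role, the share of regions that were group-specific is set beside the 7.15% of all regions. The 9 EphA receptor genes had 118 regions, of which 4 were SOX17FNV-only and 11 SOX2-only (12.7% together), and 8 of these 15 belonged to Epha4. The 5 EphB receptor genes had 86 regions with 5 and 4 (10.5%), and 4 of these 9 belonged to Ephb2. The 3 ephrin-B genes, whose products bind EphB receptors, had 33 regions with 2 and 1 (9.09%), and the 5 ephrin-A genes had 45 regions with 0 and 0. The 9 plexins had 109 regions with 3 and 4 (6.42%). The 7 class 3 semaphorins had 58 regions with 0 and 2 (3.45%), and the 13 semaphorins of classes 4 to 7 had 186 with 4 and 4 (4.3%). Regions called in all 4 libraries made up 60.0% of the ephrin-A regions and 51.7% of the class 3 semaphorin regions, and between 30.2% and 42.4% in the other roles. The differences between roles were not tested.

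**Figure D2:**
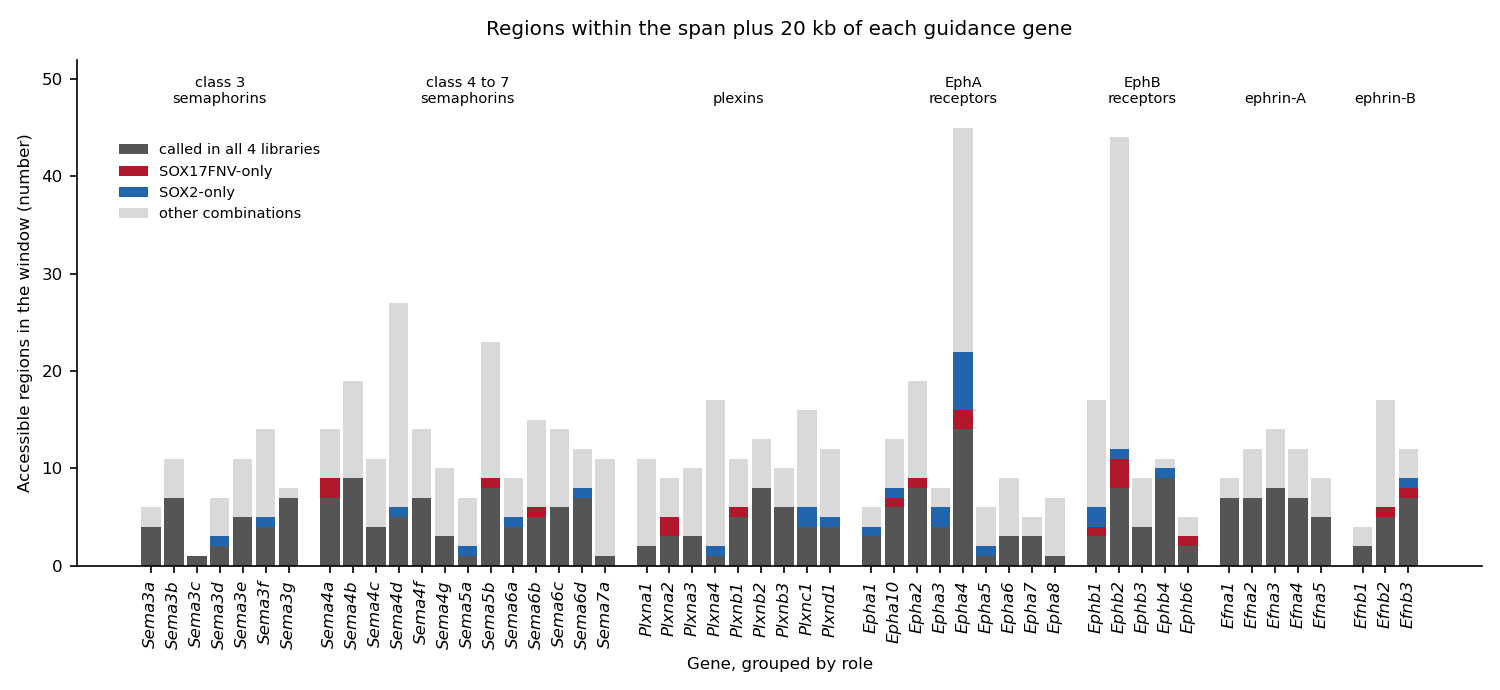
Bars give the number of regions (vertical axis) in each gene's window, its span and 20 kb on either side, with genes grouped by role along the horizontal axis. Colours give the class: called in all 4 libraries, SOX17FNV-only, SOX2-only, or other combinations. Epha4 (45 regions) and Ephb2 (44) have the most regions and the most group-specific ones, and Sema3c has 1 region in all.

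Among genes, 13 of 51 (25.5%) had a SOX17FNV-only region, where 19.3% of all protein-coding genes had one. A SOX2-only region was present for 18 (35.3%, beside 22.9%), both kinds for 5 (9.8%, beside 5.93%), and neither for 25 of the 51, beside 63.7% of all genes. At least 2 group-specific regions were present for 9 genes (17.6%), beside 12.2% of all genes. The members' longer spans give them more room for regions of any kind, and the comparison was not matched on length. The genes with both kinds were Epha4, Ephb2, Ephb1, Epha10 and Efnb3.

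Epha4 had the largest number of group-specific regions of the family: 6 SOX2-only and 2 SOX17FNV-only among its 45 regions. It was the only member with 8 or more, where 0.137% of all protein-coding genes had as many. That comparison was not matched on length or number of regions. With peaks of -log10 q of at least 5, Epha4 had 2 SOX2-only and 1 SOX17FNV-only regions, and at 10 it had 0 of either kind. The gene spans chr1:77367182-77515107 on the minus strand. Its SOX2-only regions all lay inside the span. The strongest, at chr1:77502557-77502805, had summit pileups of 38 and 20 in the SOX2 libraries, and the next, at chr1:77370915-77371168, had 30 and 18. The region at chr1:77419937-77420541 had 29 and 17, that at chr1:77476413-77476821 22 and 18, that at chr1:77506125-77506442 20 and 16, and that at chr1:77385258-77385536 17 and 14. In each of the 6, replicate 1 was the higher library in raw pileup, and its median over shared regions was also higher (35 against 28). The SOX17FNV-only regions were chr1:77503897-77504238 (26 and 12), which lies between the SOX2-only regions near the start, and chr1:77364635-77365184 (21 and 14), 1998 bp past the span's end.

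The 14 Epha4 regions called in all 4 libraries were compared by limma, a moderated linear model, on log2 summit pileups centred on each library's median. Across all 57783 regions called in all 4 libraries it called 516 higher with SOX17FNV (0.893%) and 710 higher with SOX2 (1.23%) at an adjusted p below 0.05. None of the 14 Epha4 regions passed, and their median difference was -0.16 (log2, SOX17FNV minus SOX2). The lowest p among them belonged to chr1:77490287-77490796, where summit pileups were 28 and 19 with SOX17FNV and 15 and 14 with SOX2 (log2 difference 0.82, SE 0.28, adjusted p = 0.122, limma). In the opposite direction, chr1:77456789-77457055 had 34, 21, 52 and 36 (difference -0.54, SE 0.21, adjusted p = 0.200), and chr1:77496670-77497302 had 21, 17, 42 and 25 (-0.62, SE 0.25, adjusted p = 0.231). In these 3 regions the groups did not overlap once each library was divided by its median, which was 33, 24, 35 and 28. Such separation was common: SOX17FNV libraries were both higher in 24.1% of all shared regions and SOX2 libraries in 18.5%. Shared regions of Epha4 thus leaned in either direction without any passing the test. The difference between its SOX17FNV-only and SOX2-only counts, -4 here, was 0 without SOX17FNV replicate 2 and -13 without SOX2 replicate 2.

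Ephb2, a receptor for ephrin-B ligands, had nearly as many regions (44) and the most SOX17FNV-only regions of any member, 3, beside 1 SOX2-only region. It spans chr4:136647536-136836326 on the minus strand. The SOX17FNV-only regions lay inside the span, at chr4:136766138-136766488 with summit pileups of 23 and 16, at chr4:136727043-136727224 with 20 and 21, and at chr4:136749001-136749393 with 15 and 16. At 2 of the 3 regions these raw values were nearly alike in the replicates, whose medians over shared regions were 33 and 24. The SOX2-only region, at chr4:136638950-136639301 (27 and 23), lay in the flank at the end of Lactbl1. Of the 8 regions called in all 4 libraries, 6 were higher with SOX17FNV and none passed. Their median difference was 0.17, beside 0.10 for the tested regions in the same 10 Mb stretch. Of all regions tested, 55.2% were higher with SOX17FNV. The lowest p belonged to chr4:136730271-136731222, with 37 and 29 against 27 and 17 (log2 difference 0.77, SE 0.24, adjusted p = 0.0943, limma), and its groups did not overlap. The Ephb2 start region had 28 and 22 with SOX17FNV against 33 and 32 with SOX2 (difference -0.24, adjusted p = 0.737). Ephb2 also had 32 regions outside these classes, more than any other member. SOX17FNV replicate 1 called 35 of the 44 regions and SOX2 replicate 2 called 16. The difference of 2 between the SOX17FNV-only and SOX2-only counts was 10 without SOX17FNV replicate 2 and 5 without SOX2 replicate 1.

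**Figure D3:**
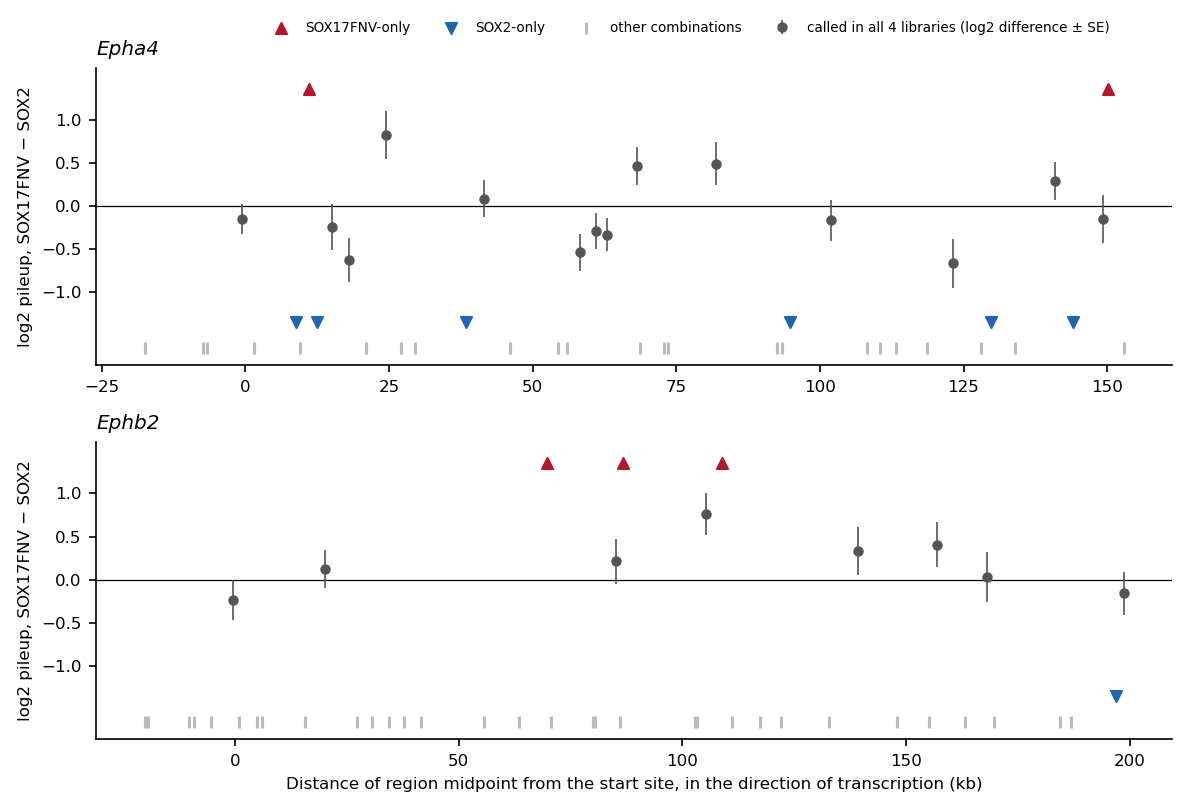
Regions in the windows of Epha4 and Ephb2, placed by distance from the start site in kb, in the direction of transcription. Circles give the log2 difference in centred summit pileup (SOX17FNV minus SOX2, bars for the SE) of regions called in all 4 libraries. Triangles above mark SOX17FNV-only regions, triangles below SOX2-only regions, and ticks regions with other combinations of libraries; their height carries no value. Epha4 has 6 SOX2-only marks spread over the gene and shared regions on both sides of 0, and Ephb2 has 3 SOX17FNV-only marks within the gene and 6 of 8 shared regions above 0.

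Of the remaining Eph receptors, Ephb1, Epha3 and Epha10 had at least 2 group-specific regions. Ephb1, a receptor with known roles in guiding retinal axons, had SOX2-only regions at chr9:102148378-102149208 (30 and 13) and chr9:102243185-102243816 (22 and 18). Between them lay a SOX17FNV-only region at chr9:102206759-102207082 with summit pileups of 14 and 14. Epha3 had SOX2-only regions at chr16:63806550-63807039 (19 and 16) and chr16:63828460-63828789 (13 and 13), the second at the lowest pileup that a SOX2-only region of the family had. Epha10, a receptor that lacks kinase activity, had a SOX17FNV-only region in its upstream flank at chr4:124872791-124873199 (16 and 16) and a SOX2-only region at chr4:124914091-124914455 (22 and 24). Without SOX2 replicate 2, 4 regions of Epha3 and 4 of Ephb1 were SOX2-only, and without SOX17FNV replicate 1 Ephb1 had 3 SOX17FNV-only and 5 SOX2-only regions. Epha2, a receptor known in early embryos and epithelia, had the strongest EphA region, at chr4:141291251-141292276, with 73, 65, 66 and 77. That region lay 8945 bp outside the span and was shared by all libraries. Inside the span was a SOX17FNV-only region at chr4:141304338-141304715 with 36 and 22. Ephb3 had the strongest EphB region at its start, with summit pileups of 77, 71, 72 and 73, and the groups overlapped.

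Epha7, a receptor for ephrin-A ligands, had 1 of the 2 regions of the family that passed the limma test. At its start the summit pileups were 56 and 48 with SOX17FNV and 62 and 44 with SOX2. The region that passed lay at the other end, at chr4:28967547-28968100, starting 44 bp past the end of the span. There the SOX17FNV libraries had 21 and 12 and both SOX2 libraries 35. Both SOX2 libraries were above both SOX17FNV libraries. The log2 difference was -0.99 (SE 0.26), a ratio of 0.504, with an adjusted p of 0.0320 by limma. With a library left out the difference lay between -1.16 and -0.81 and the call ended (adjusted p between 0.158 and 0.626). It also ended with quantile normalization (difference -1.01, adjusted p = 0.0860), with centring over 10 Mb stretches (-0.94, 0.0669) and without the trend of the spread on level (-0.99, 0.0633), and held with the deposited fold in place of the pileup (-0.96, 0.0278).

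Sema6d gave the largest difference toward SOX2 of all 57783 regions tested anywhere in the genome. The gene spans chr2:124089943-124667789 on the plus strand, and its window held 12 regions, a low density of 1.94 per 100 kb. At chr2:124404332-124405394, inside the span, the SOX17FNV replicates reached summit pileups of 14 and 10 and the SOX2 replicates 46 and 43. Both SOX17FNV values were near the weakest pileup their library could call (11 and 10), and both SOX2 values were high, at the 86.0th and 88.1th percentile of their library. Divided by each library's median, the values were 0.424 and 0.417 against 1.31 and 1.54, so the groups did not overlap. The ratio of the groups was 0.296 (log2 difference -1.76, SE 0.26, adjusted p = 0.000116, limma). With the deposited fold enrichment in place of the pileup it ranked 3 of 57783 toward SOX2, and with 1 library left out it ranked between 3 and 13. Without SOX17FNV replicate 1 the adjusted p was 0.474 and without SOX17FNV replicate 2 it was 0.626, where the difference was -1.77 and -1.74 and no region of the genome passed (5891 and 4572 regions then had an unadjusted p below 0.05).

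The other Sema6d regions did not all lean the same way. At chr2:124636869-124637634, upstream of the gene's second listed start, the summit pileups were 17 and 14 with SOX17FNV and 34 and 30 with SOX2 (log2 difference -0.90, SE 0.26, adjusted p = 0.0617, limma). At chr2:124294864-124295702 they were 20 and 12 against 41 and 22 (-0.80, SE 0.27, adjusted p = 0.126). At chr2:124145259-124145961 the order was the opposite, with 38 and 35 against 28 and 25 (0.62, SE 0.22, adjusted p = 0.156). In these 3 regions the groups did not overlap after scaling, yet none passed the test. Among all shared regions, 24.1% had both SOX17FNV libraries higher and 18.5% both SOX2 libraries. The regions at chr2:124234607-124235308 (20, 15, 20 and 17) and chr2:124609627-124611122 (37, 31, 45 and 36) overlapped between groups. A SOX2-only region with summit pileups of 20 and 19, at chr2:124505924-124506486, lay 101047 bp from the nearest SOX17FNV peak, the most isolated group-specific region of the family. The gene's second start, at position 124653581, was called in no library. The median difference of the regions in the same 10 Mb stretch was 0.07, and with each library centred on its own median over that stretch the passing region differed by -1.80 (adjusted p = 0.000417).

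**Figure D4:**
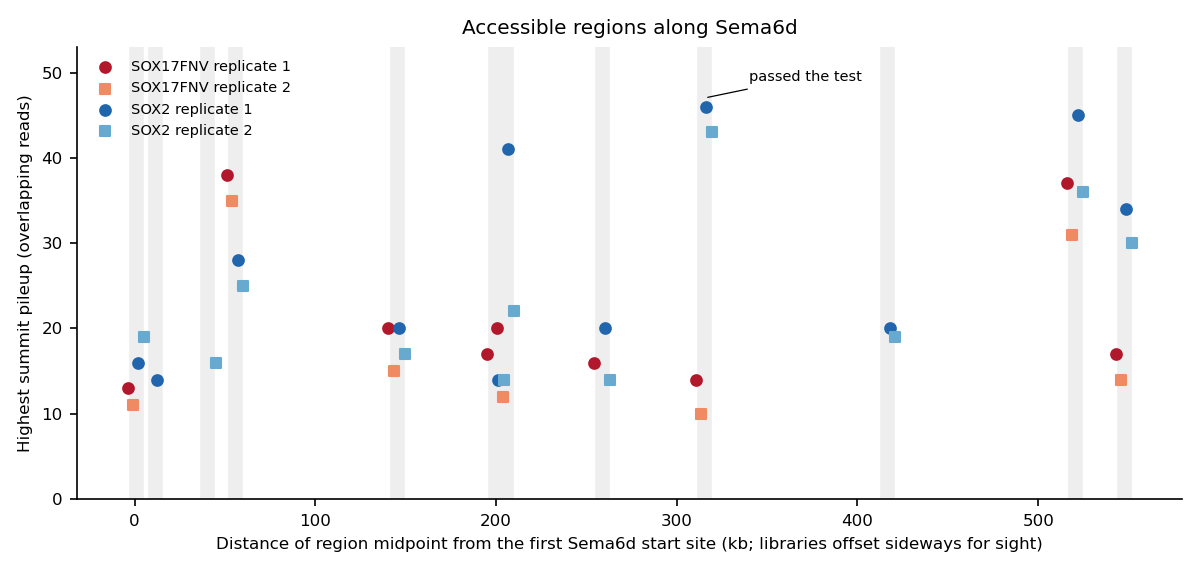
Highest summit pileup (overlapping reads, vertical axis) in each library that called a region, for the 12 regions of the Sema6d window, placed by distance from the first listed start in kb. Circles are replicate 1 and squares replicate 2 of each group, a grey band marks each region, and a library with no point did not call it. The region marked as passing the test has 14 and 10 with SOX17FNV against 46 and 43 with SOX2. The last region along the gene has the same order with a smaller gap (17 and 14 against 34 and 30), and the region nearest the start among the high ones has the opposite order (38 and 35 against 28 and 25).

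In the other semaphorins of classes 4 to 7 no region passed. Sema4a, an immune semaphorin that also acts in the retina, had SOX17FNV-only regions at chr3:88447401-88447676 (18 and 15) inside the span and at chr3:88477804-88478052 (37 and 17) in the upstream flank. Sema4d, a ligand of Plxnb1, had the most regions of the role (27, of which 5 were called in all 4 libraries) and a single SOX2-only region, with 19 and 21. The strongest region of the role, with 76, 52, 72 and 68, lay in the Sema4b window at the ends of Cib1 and Gdpgp1. Without SOX17FNV replicate 2 Sema4a had 4 SOX17FNV-only regions. Of the 67 regions tested in this role, 32 were higher with SOX17FNV and 35 lower, with a median of -0.01.

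Of the 30 tested regions of class 3 semaphorins, 15 were higher and 15 lower with SOX17FNV, the median difference was 0.00 and none passed. The 7 regions of Sema3g were all among the higher ones, and of the 23 others 8 were higher and 15 lower. Sema3f, which signals through neuropilin Nrp2, had the most regions (14) and a SOX2-only region with 26 and 23. In the Sema3g window the median difference was 0.54. The lowest p among them was at chr14:31233796-31234863, where the SOX17FNV libraries had 52 and 39 and both SOX2 libraries 32 (log2 difference 0.65, SE 0.20, adjusted p = 0.0803, limma). At chr14:31239623-31240488 the values were 39 and 29 against 26 and 19 (0.75, SE 0.24, adjusted p = 0.0899). At chr14:31250277-31251890, at the ends of Bap1 and Phf7, they were 74 and 50 against 53 and 40 (0.56, SE 0.17, adjusted p = 0.0875). The whole stretch of chromosome 14 moved with them: the median difference of the 257 tested regions in the same 10 Mb was 0.43. With each library centred on its own median over that stretch, these 3 regions differed by 0.18, 0.28 and 0.09, with adjusted p-values of 0.820, 0.727 and 0.917.

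Among the plexins, 18 of 36 tested regions were higher with SOX17FNV and 18 lower, the median was -0.03 and none passed. Plxna2, a receptor of class 3 and 6 semaphorins, had SOX17FNV-only regions at chr1:194610633-194610916 (16 and 12), in the upstream flank, and at chr1:194761568-194761872 (13 and 10). Plxnc1, a receptor for Sema7a, had SOX2-only regions at chr10:94881593-94882265 (28 and 22) and chr10:94809197-94809636 (15 and 15), both inside the span. Plxna4 had the most regions (17), of which 1 was called in all 4 libraries, and a SOX2-only region with 15 and 18. All 4 of these Plxna2 and Plxnc1 regions had pileups below the median of shared regions in each library that called them. Plxna2 had 3 SOX17FNV-only regions without SOX17FNV replicate 1 or SOX2 replicate 1, and 0 at -log10 q of at least 5. Plxnc1 had 5 SOX2-only regions without SOX2 replicate 2 and 3 without SOX2 replicate 1.

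Among the ephrin-B ligands, Efnb2 had the most regions of the B type (17) and 1 SOX17FNV-only region, at chr8:8612018-8612662 in the flank past the end of the gene. The summit pileup of that region was 36 in both SOX17FNV libraries, at the 77.5th and 84.8th percentile, which is strong for a region not called at all in the SOX2 libraries. The nearest SOX2 peak lay 2383 bp away, in a region at chr8:8608847-8609799 with 63 and 61 against 51 and 50 (log2 difference 0.45, SE 0.18, adjusted p = 0.222, limma). At the Efnb2 start the difference was 0.01 (SE 0.17). Efnb3 had a SOX17FNV-only region inside its short span, at chr11:69560244-69560538 (34 and 26). It also had a SOX2-only region at chr11:69564041-69564835 (64 and 41), 2891 bp outside the span and over the gene Wrap53. The latter was the strongest group-specific region of the family, at the 95.9th and 86.4th percentile of its libraries. It was no longer SOX2-only, and 2 regions were SOX17FNV-only, when peaks had to cover at least 50% of a region to count.

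The ephrin-A genes, whose products are lipid-anchored ligands, had no group-specific region in 45. Efna1, Efna3 and Efna4 lie close together on chromosome 3 with overlapping windows, so their regions are not independent. The region at chr3:89299078-89299972, in the windows of Efna1 and Efna3, had summit pileups of 48 and 35 with SOX17FNV and 39 and 24 with SOX2 (log2 difference 0.58, SE 0.21, adjusted p = 0.154, limma), and its groups did not overlap after scaling. Efna3 had the most regions (14). The strongest region, with 72, 56, 74 and 55, lay in the Efna2 window. Of the 27 ephrin-A regions tested, 17 were higher with SOX17FNV and 10 lower, with a median of 0.13 and none past the threshold.

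Over the whole family, 0 of 243 tested regions were higher with SOX17FNV and 2 higher with SOX2 by limma at an adjusted p below 0.05, those of Sema6d and Epha7. In either direction 2.12% of all regions tested passed. At an unadjusted p below 0.05 there were 25 (10.3%), beside 13.5% of all regions tested. The median difference was 0.01, beside 0.04 for all regions, and 126 of 243 (51.9%) were higher with SOX17FNV, beside 55.2%. Both SOX17FNV libraries lay above both SOX2 libraries in 46 regions (18.9%), where 24.1% of all regions did so. The reverse held in 42 (17.3%), where 18.5% of all regions did so. These shares are at or below the background. The medians by role ran from -0.03 in the plexins to 0.13 in the ephrin-A genes, with 0.05 in the EphB receptors, 0.01 in the EphA receptors and 0.03 in the ephrin-B genes.

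**Figure D5:**
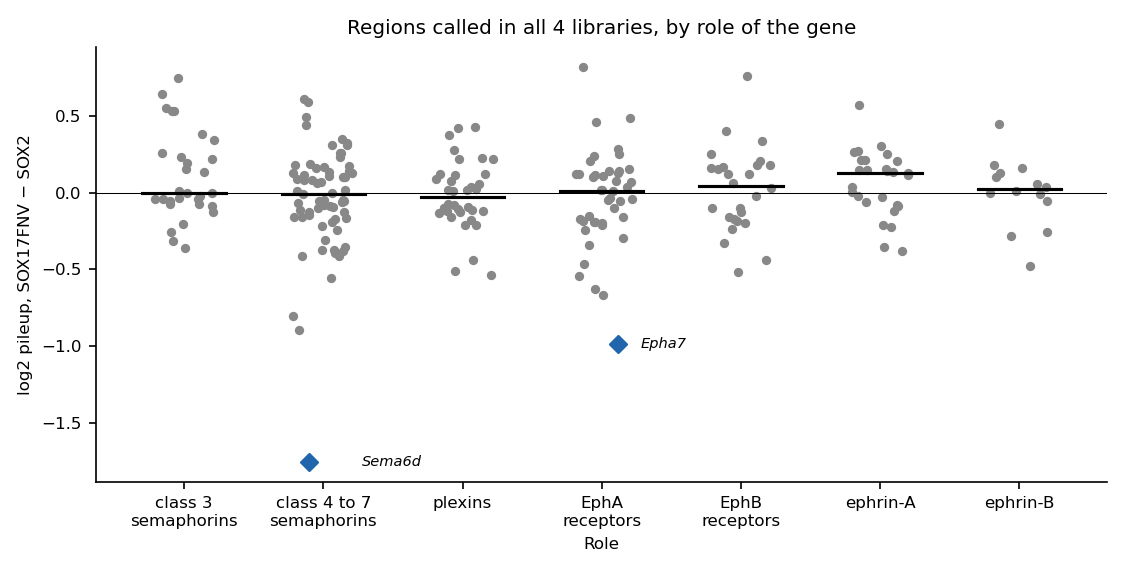
Each point is a region called in all 4 libraries, with its log2 difference in centred summit pileup (SOX17FNV minus SOX2) on the vertical axis and the role of its gene on the horizontal axis. Black bars are the medians of the roles and diamonds the regions that passed the test. The medians lie between -0.03 and 0.13, and the diamonds of Sema6d (-1.76) and Epha7 (-0.99) lie below all other regions of their role.

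Other genes of the guidance pathways, taken from a list of 43 genes by role, were counted in the same way. Their windows held 817 regions, of which 16 were SOX17FNV-only (1.96%, beside 3.06% of all regions) and 39 SOX2-only (4.77%, beside 4.09%). The co-receptors of semaphorins had 0 and 3 in 51 regions, the netrins and their receptors 2 and 8 in 151, the slits and their receptors 3 and 12 in 181, and the intracellular effectors 11 and 16 in 434. The genes with 3 or more were Nrp2, Unc5d and Robo2 with 0 and 3 each, Slit3 with 2 and 7, Mical3 and Vav2 with 1 and 3, and Farp1 with 4 and 0. Nrp2 is a co-receptor for class 3 semaphorins, and Slit3 is a secreted ligand of Robo receptors. Among 245 tested regions, limma called 7 higher with SOX17FNV (2.86%, beside 0.893% of all regions tested) and 2 higher with SOX2 (0.816%, beside 1.23%). All 7 lay in the window of Farp1, an effector of class A plexins, on chromosome 14, where the median difference of the 10 Mb stretch was 0.48, and 1 of the 7 passed with each library centred on its own median there (adjusted p = 0.0203). In Mical3, a flavoprotein that acts on actin downstream of semaphorins, the region at chr6:121002509-121004287 had 23 and 12 with SOX17FNV and 71 and 47 with SOX2 (log2 difference -1.64, SE 0.23, adjusted p = 6.3e-05, limma). In Slit3 the region at chr11:35151217-35152423 had 36 and 19 against 60 and 48 (-0.88, SE 0.20, adjusted p = 0.0117). In both, the SOX2 libraries were the higher pair, as at Sema6d. The median difference of the 10 Mb stretch was -0.20 at Mical3 and -0.02 at Slit3. With each library centred on its own median there, the regions differed by -1.36 and -0.91 (adjusted p = 0.00344 and 0.0141, limma).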

How the data were processed

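ATAC-seq peak lists of 4 libraries (SOX17FNV and SOX2, 2 each) were used, with samples grouped by the genotype label. The submitters' processing notes name Bowtie2, SAMtools, MACS2 and mm10. Not given in the sources used here: tool versions, settings and read shifting. Each deposited list names 1 library in its peak names, which means that calling was done per library. The deposited columns are a score, the fold enrichment (a ratio) at the summit, and the -log10 p-value and -log10 q-value, as the authors' peak caller wrote them. The lowest deposited -log10 q was 1.3. Read totals were not used here, and depth is known only through pileups. Summit pileups were solved from the deposited fold and -log10 p, and a whole number gave the deposited value within a tolerance of 0.001 for 100% of summits. Whether a pileup counts reads or fragments is not stated there.

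Regions were made by merging peaks of the 4 lists with an overlap of 1 bp or more. Gene spans and starts came from RefSeq for GRCm38.p6, so positions within exons, introns or UTRs were not analysed here. limma 3.58.1 in R 4.3.3 compared log2 pileups, centred on each library's median, over the 57783 regions called in all 4 libraries, two-sided, with a trend and Benjamini-Hochberg adjustment over all of them. Regions not called in every library have no value and were only counted. The steps were tested on simulated data. Counting used Python 3.11.15.

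The members and gene lists were chosen with earlier results of these data known. Named genes were those with at least 2 group-specific regions, a region past the threshold, the most regions or the strongest region of a role, or an uncalled start. Regions of other genes in the list were named for the same threshold, and regions described within a named gene beyond these were chosen after their values were seen. Alternatives changed the peak threshold, list lengths, overlap, window, scaling, measure, spread, block and libraries.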

Additional observations from a re-analysis of the deposited data

How the results depend on the processing

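Pileups near the calling limit bound what the lists can show, since a region missed by 1 library has no value there and is not shown to be closed. The 18 SOX17FNV-only, 26 SOX2-only and 243 shared member regions became 6, 12 and 132 with peaks of -log10 q of at least 5, and 3, 4 and 51 at 10. Lists of equal length (92851 peaks) gave 19, 22 and 227. Peaks covering at least 50% of a region gave 20, 25 and 153, and spans without flanks 10, 21 and 134. Leaving out 1 library gave 22 to 91 SOX17FNV-only and 37 to 92 SOX2-only regions. A group left with 1 library is then called by that library alone. Regions of the genome higher with SOX17FNV and with SOX2 by limma were 516 and 710 (42.1% higher with SOX17FNV). They were 134 and 328 (29.0%) with quantile normalization, 224 and 488 (31.5%) with 10 Mb centring, and 38 and 170 (18.3%) with the deposited fold. They were 114 and 285 (28.6%) without the trend and 233 and 295 of 28700 regions with -log10 q of at least 5 in every library. Leaving out 1 library gave 0 to 93 and 0 to 59, with the lone library of a group assumed to vary like the others. The 2 member regions higher with SOX2 became 1 with quantile normalization, 10 Mb centring or no trend, and 0 to 1 with 1 library left out. The count was 0 among the 132 member regions with -log10 q of at least 5 in every library (11 at an unadjusted p below 0.05), but that filter removes both regions before the test, so their calls were not tested there. For the other settings the cause was not tested.

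The labels give both groups the same replicate numbers and do not say that a number marks a shared batch. With only 2 pairs, the deviations of same-numbered libraries correlated at 0.233 over regions. With the replicate block limma called 1886 regions higher with SOX17FNV and 1788 higher with SOX2 (51.3%), and 9 and 4 member regions, in the windows of Efna1, Efna3, Efnb2, Epha4, Epha7, Ephb2, Sema3g and Sema6d.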
